A study of Arabidopsis thaliana with 357 samples.

Results

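The 42 libraries described here came from a pair of Arabidopsis thaliana genotypes that differ at a single locus, PAD4, and they are 42 of the 357 libraries of the series. They were chosen by genotype alone, as the case-sensitive names jePs and jeps. Leaves of both genotypes were profiled before infiltration (0 h) and at 1, 2, 3 and 5 h, then at 9 h and 18 h after it, with 3 libraries per genotype and time point, which gave 14 groups and 21 libraries for each genotype. The letters stand for the jasmonate (j), ethylene (e), PAD4 (p) and salicylate (s) signalling sectors, and a lower-case letter marks a sector broken by mutation. The jePs plants carry dde2-2 (in a jasmonate synthesis gene), ein2-1 (in a gene needed to signal ethylene) and sid2-2 (in the salicylate synthesis gene induced by infection), so that PAD4 is the sector left intact. The jeps plants carry the same alleles and pad4-1. The wild type of the series is Col-0, and no wild-type plants enter the comparison.

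The treatment was infiltration of leaves with 1 µM flg22, a peptide from bacterial flagellin that plants sense through the receptor kinase FLS2. The 0 h leaves were not infiltrated, and were harvested at another time of day than the leaves from 1 to 5 h, so that the effects of flg22, infiltration and time of day cannot be told apart within a change from 0 h. Both genotypes shared that schedule. Every library pooled 12 leaves from 4 experiments on plants 31 to 32 days old. Libraries with the same replicate number drew on the same experiments, and 18 of the 21 same-numbered pairs of jePs and jeps shared a sequencing lane (replicate 1 at 1, 2 and 3 h did not).

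PAD4 is a lipase-like protein that works in a complex with EDS1, a related protein, and with helper receptors of the ADR1 family. The complex is known for raising salicylate during defence against biotrophic pathogens. Salicylate is made mostly from isochorismate by SID2 (also called ICS1), moved out of the chloroplast by EDS5 and finished by PBS3, and its accumulation feeds back on PAD4 and EDS1. PAD4 also has functions that do not need salicylate, and a plant without SID2 is where these can be looked for. The study asked what each signalling sector does by itself, and the comparison of jePs with jeps addresses that question for PAD4.

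Total reads in genes ranged from 622981 to 1949661 in jePs (median 1308613) and from 372525 to 2046996 in jeps (median 1248354), with 15567 to 18455 and 15241 to 18323 genes having reads. Levels are given as normalized counts, the read count of a gene divided by the 90th percentile count of its library and multiplied by 300. Of 33600 genes in the table, 11848 passed the filter on low counts and were tested. The highest correlation between any 2 of the 42 libraries was 0.963, so no library was a copy of another. Lists of markers of guard cells, phloem, epidermis and mesophyll overlapped between the genotypes in summed level over all time points. The ranges were 13000 to 242000 in jePs and 21600 to 252000 in jeps for mesophyll, and 1230 to 5070 and 1360 to 5910 for guard cells. Because each range pools all time points and is wide, its overlap cannot show equal composition at any 1 time. No tested marker was called. The trichome markers GL1 and GL3 and the root hair marker COBL9 were at 0 in all 42 libraries. In whole leaves, fewer cells of a type and less RNA per cell cannot be told apart.

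The PAD4 transcript itself checked the labels. At 0 h its normalized counts were 58.3, 52.7 and 117 in jePs and 0, 18.2 and 4.69 in jeps. By 1 h they were 1180, 115 and 634 against 24.1, 27.3 and 28.6, and by 18 h 97.9, 438 and 270 against 15, 8.91 and 37.5. All 3 jePs libraries lay above all 3 jeps libraries at each of the 7 time points. The mean log2 difference over 1 to 18 h was 4.05 ± 0.30 (SE). A transcript could still be read in jeps, since pad4-1 does not delete the gene, and up to 17 reads per library were counted there at 3 h. The other mutated genes did not separate the genotypes. SID2 was between 0 and 22.8 in jePs and between 0 and 18.5 in jeps, and DDE2 (AOS) and EIN2 had no call at any time point. FLS2 stood at 903, 892 and 692 in jePs and 849, 1060 and 539 in jeps at 1 h.

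Of the tested genes, 150 (1.27%) differed in level between jePs and jeps at 1 or more of the 7 time points. A call here required an adjusted p under 0.05, over all tested genes and time points, and a log2 difference above 1 in size. In 144 of them (1.22%) the level was higher in jePs, and in 6 (0.0506%) it was lower. Before infiltration, 5 genes were higher in jePs (0.0422%) and 2 were lower (0.0169%). By 1 h, 57 genes were called (0.481%), of which 54 were higher (0.456%) and 3 lower (0.0253%). The call lists of the next 4 time points held higher genes only, 37 genes at 2 h (0.312%), 20 genes at 3 h (0.169%), 22 genes at 5 h (0.186%) and 55 genes at 9 h (0.464%). By 18 h, 91 genes were called (0.768%), 90 of them higher (0.76%) and 1 lower (0.00844%). Calls at a single time point made up 94 of the 150 genes, 33 genes were called at 2 or 3 time points and 23 at 4 or more. With the replicate number as a block within each time point, 322 genes were called (276 higher and 46 lower), among them 144 of the 150. The 1 h count leaned on jePs replicate 1, without which 7 genes were called at 1 h, and 31 were called without jeps replicate 3. The counts at 2 h and 3 h fell to 11 and 5 without jePs replicate 1 of those times, that at 9 h to 31 without jePs replicate 2, and those at 18 h to between 57 and 59 without jePs replicate 2 or 3 or jeps replicate 2. The 0 h count fell to 1 without jeps replicate 3. A contrast of the mean over 1 to 18 h, chosen after seeing the data, called 119 genes higher (1%) and 3 lower (0.0253%), and 114 to 119 genes in all when 1 replicate number was left out.

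**Figure D1:**
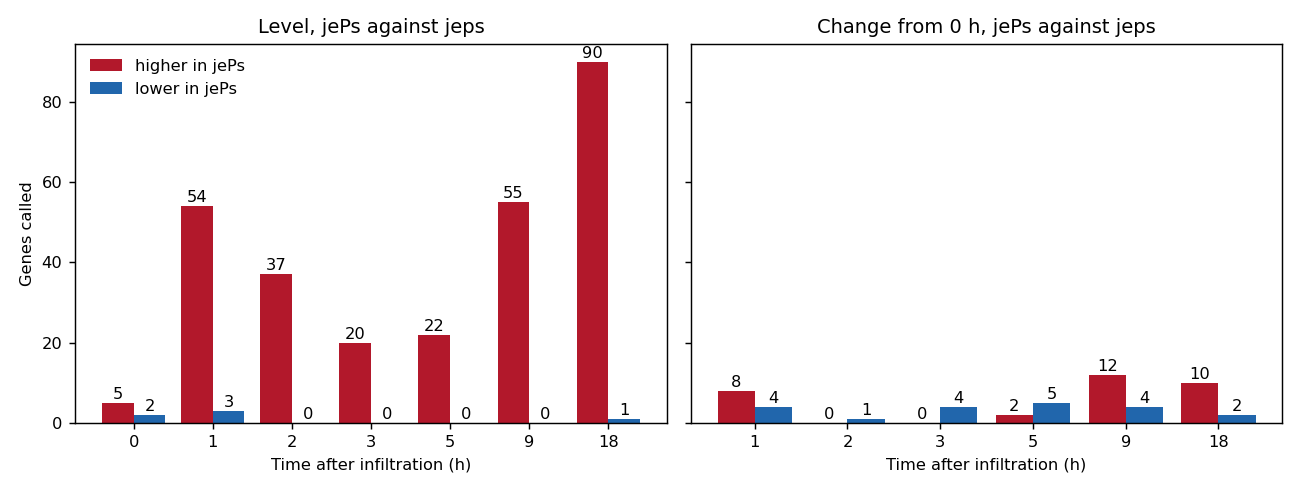
Number of genes called in jePs against jeps at each time point after infiltration, for the level (left) and for the change from 0 h (right), higher in red and lower in blue. Level calls were nearly all higher in jePs and peaked at 90 genes at 18 h, while at most 16 genes were called on the change from 0 h at any time point.

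Among the EDS1 and PAD4 complex and its helper receptors, 4 of 9 tested members were higher in jePs at 1 or more time points (PAD4, EDS1, SAG101 and ADR1-L1) and none was lower. Of all tested genes, 1.22% were called higher. PAD4 is the locus that differs by design, so its own call says nothing about the rest of the list. With PAD4 included, the median level difference of the list was 0.74 at 0 h and 0.88 over 1 to 18 h, beside 0.01 and -0.03 for all tested genes (log2). EDS1, the partner of PAD4, had normalized counts of 100, 114 and 175 in jePs and 88.2, 50 and 32.8 in jeps at 0 h. At 9 h it stood at 456, 528 and 409 against 107, 158 and 107, a 3.69-fold difference (log2 1.88 ± 0.36 SE, adjusted p = 0.000544, n = 3 per group), with the groups apart at every time point except 1 h. EDS1 has a near-identical neighbour, EDS1B, and only reads that mapped to a single gene were counted. SAG101, a second lipase-like partner of EDS1, was called at 1 h (2.15-fold, adjusted p = 0.00288) through 2220 normalized counts in jePs replicate 1, beside 523 and 984 in the other 2 jePs libraries and 500 to 680 in jeps. Without that library the 1 h difference was 0.39 on the log2 scale and was not called, and with the replicate block it was 0.99, below the size minimum. At 18 h SAG101 was called again, at 186, 265 and 314 against 162, 77.2 and 144. ADR1-L1, a helper receptor, reached 398, 396 and 524 against 237, 181 and 231 at 18 h, a 2.03-fold difference that was lost without jePs replicate 3 or jeps replicate 2 or 3.

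The genes that make salicylate and control its making were higher in jePs although SID2 was mutated in both genotypes. Of 7 tested members, 5 were called higher (EDS5, PBS3, SARD1, CBP60g and TGA1), beside 1.22% of all tested genes. The median level difference was 0.18 at 0 h and 1.03 over 1 to 18 h (log2). PBS3, the enzyme that conjugates isochorismate to glutamate, did not separate the genotypes at 0 h (8.33, 24.3 and 16.7 in jePs, 17.6, 27.3 and 23.4 in jeps). At 3 h it stood at 719, 129 and 654 in jePs and 53.3, 15.2 and 55.6 in jeps, a 12.7-fold difference (log2 3.66 ± 0.68, adjusted p = 0.000305). At 5 h the groups overlapped (589, 150 and 617 against 162, 94.1 and 144), and at 9 h they were apart again (369, 388 and 964 against 75, 41.7 and 70.4). EDS5, the chloroplast exporter, was also alike at 0 h (25, 24.3 and 16.7 in jePs, 35.3, 9.09 and 23.4 in jeps). At 9 h it reached 200, 388 and 357 against 21.4, 20.8 and 11.1, an 18.6-fold difference (log2 4.22 ± 0.80, adjusted p = 1.05e-05). Both genotypes had more EDS5 at 1 h than at 0 h, and from 2 h on every jePs library lay above every jeps library. For PBS3 and EDS5, the difference between the genotypes in the change from 0 h was not called at any time point.

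SARD1 and CBP60g encode related transcription factors that switch on SID2 and other defence genes. SARD1 was read in all 3 jePs libraries at 0 h (8.33, 28.4 and 16.7) and had 0 reads in the 3 jeps libraries. After infiltration both genotypes had it, at 188, 274 and 357 in jePs and 53.6, 33.3 and 40.7 in jeps at 9 h (log2 2.74 ± 0.59, adjusted p = 0.00208). The groups did not overlap at any of the 7 time points. CBP60g was much more responsive and less different, with 1790, 1360 and 1700 in jePs and 1570, 1090 and 1190 in jeps at 3 h, groups that overlapped. Its calls were at 1 h, where jePs replicate 1 stood at 2130 beside 300 and 813, and at 18 h (208, 500 and 396 against 90, 83.2 and 109, 3.89-fold, adjusted p = 0.000314). The 1 h call was lost without jePs replicate 1. TGA1, a bZIP factor that acts with salicylate receptors, was called at 9 h alone (138, 219 and 153 against 42.9, 66.7 and 48.1), and not without jePs replicate 2 or jeps replicate 3 of that time.

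**Figure D2:**
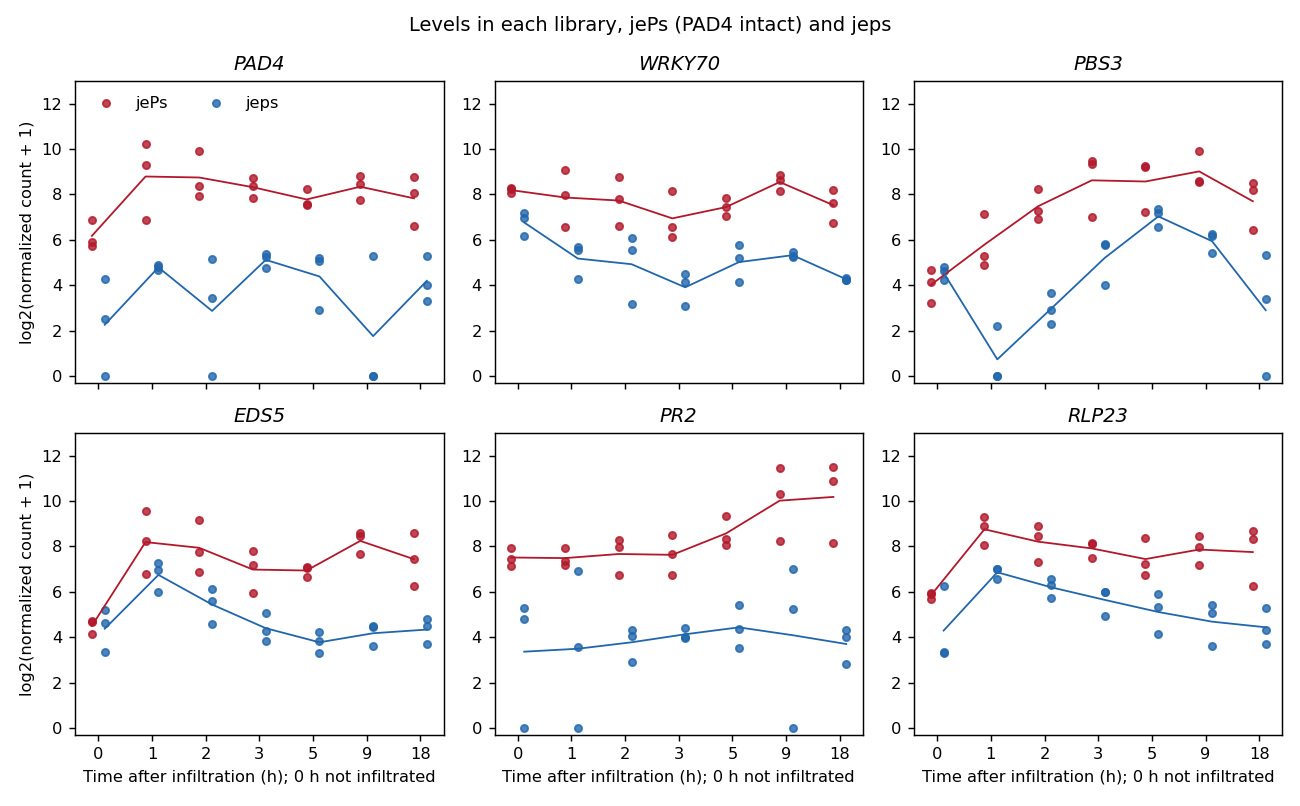
Levels of 6 genes in each library, as log2 of the normalized count plus 1, against time after infiltration for jePs (red) and jeps (blue), with a line through the mean of the 3 libraries. The genotypes were apart at every time point for PAD4, WRKY70 and PR2, and overlapped at 0 h for PBS3, EDS5 and RLP23.

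Salicylate receptors and output genes gave 6 tested members, of which 4 were higher (PR2, PR5, NIMIN2 and WAK1), beside 1.22% of all tested genes. The list had a median difference of 1.55 over 1 to 18 h and 0.14 at 0 h. PR2, a secreted glucanase used as a marker of salicylate action, had 175, 142 and 242 in jePs and 0, 27.3 and 37.5 in jeps at 0 h. At 18 h it had 284, 2880 and 1920 against 6, 14.9 and 18.8 (log2 6.96 ± 1.01, adjusted p = 3.12e-08), the widest of the differences in this list. WAK1, a wall-associated kinase, stood at 263, 444 and 319 in jePs and 53.6, 70.8 and 37 in jeps at 9 h, 6.44-fold apart. PR5, which encodes a thaumatin-like protein, was called at 18 h (205, 954 and 1010 against 132, 261 and 166), with overlapping groups, and the call was lost in 4 of the 6 fits without 1 library of that time point. NIMIN2, whose protein binds the receptor NPR1, was called at 9 h (119, 62.8 and 95.7 against 21.4, 0 and 3.7) and was likewise lost in 4 of 6. PR1, the classical marker, did not pass the filter and was not tested, and had at most 23 reads in any of the 42 libraries. It was at 3.16, 88.5 and 45.8 in jePs and at 0 in the 3 jeps libraries at 18 h, and at 0 in all 6 libraries at 0, 1 and 5 h. NPR1 and NPR3, which encode receptors, had no call.

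Group III WRKY transcription factors, a family of defence regulators, had the highest list median before and after infiltration, 1.33 at 0 h and 2.06 over 1 to 18 h (log2), from 5 tested members of 9. Those called higher were WRKY70, WRKY54 and WRKY46, a call that 1.22% of all tested genes had. WRKY70, a regulator that acts downstream of salicylate and represses some jasmonate outputs, had 267, 308 and 300 in jePs and 70.6, 145 and 122 in jeps at 0 h. At 18 h it had 107, 296 and 195 in jePs and 18, 17.8 and 18.8 in jeps, 10.7-fold apart (log2 3.41 ± 0.63, adjusted p = 4.68e-05), and it was called at all 6 time points after infiltration. The fitted change from 0 h to 18 h was -0.56 in jePs and -2.65 in jeps, and the difference between those changes, 2.09, was not called (q = 0.206). WRKY46 was at 623, 92.3 and 100 against 56.2, 54.5 and 14.3 at 1 h, a call that was lost without jePs replicate 1 or jeps replicate 3. Its groups were apart at every time point except 5 h. WRKY54 was called at 3 h with overlapping groups (150, 36 and 25 against 10, 0 and 25.9) and the call was lost without jePs replicate 1 or jeps replicate 1 or 2.

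Upstream sequences of 4 of the genes called at 4 or more time points are shown because WRKY factors, 3 of which were higher in jePs, bind DNA at the W-box. They are the 250 bases before the annotated transcript start in RefSeq, build TAIR10.1, written 5′ to 3′ on the strand of the gene, and capitals mark each TTGAC, the W-box core, on either strand (GTCAA where it lies on the other strand).
WRKY70: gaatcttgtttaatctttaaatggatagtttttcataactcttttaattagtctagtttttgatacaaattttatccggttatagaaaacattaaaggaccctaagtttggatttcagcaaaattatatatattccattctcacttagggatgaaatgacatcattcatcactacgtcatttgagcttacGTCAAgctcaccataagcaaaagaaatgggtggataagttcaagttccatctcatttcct
EDS5: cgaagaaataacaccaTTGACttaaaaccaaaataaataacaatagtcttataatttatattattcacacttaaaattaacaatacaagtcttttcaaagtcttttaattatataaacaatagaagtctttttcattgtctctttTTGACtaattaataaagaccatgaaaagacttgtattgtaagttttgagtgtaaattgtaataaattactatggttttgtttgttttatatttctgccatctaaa
SARD1: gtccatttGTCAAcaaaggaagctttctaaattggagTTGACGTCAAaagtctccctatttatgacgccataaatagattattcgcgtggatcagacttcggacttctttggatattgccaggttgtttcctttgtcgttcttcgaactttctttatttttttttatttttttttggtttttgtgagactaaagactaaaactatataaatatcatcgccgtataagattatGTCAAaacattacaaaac
RLP23: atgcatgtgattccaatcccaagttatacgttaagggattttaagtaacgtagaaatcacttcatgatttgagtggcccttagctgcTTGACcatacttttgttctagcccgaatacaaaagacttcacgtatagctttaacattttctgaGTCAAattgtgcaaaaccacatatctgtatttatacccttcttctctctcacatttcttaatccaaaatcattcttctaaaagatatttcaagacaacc

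These windows lie at chr3:20910624-20910873 (minus strand) for WRKY70, chr4:18185187-18185436 (plus strand) for EDS5, chr1:27749249-27749498 (minus strand) for SARD1 and chr2:13862615-13862864 (minus strand) for RLP23. WRKY70 had 1 core, EDS5 and RLP23 had 2 each and SARD1 had 4, 2 of which lie end to end on opposite strands. All 4 windows shown hold the core, which 13 of the 23 genes called at 4 or more time points do, so they do not represent the 23. The core stood in the same window of 63.2% of the 144 genes higher after infiltration, of 45.4% of tested genes with an annotated start and of 43.9% of all annotated genes, and in 56.5% of the 23 genes called at 4 or more time points. The longer W-box (TTGACC or TTGACT, both strands, which holds the core) stood in 46.5% of the 144, in 28.8% of tested genes and in 27.5% of all. Among the 23, it stood in 34.8%. TGACG, which overlaps the core by 4 bases, stood in 23.6% of the 144, in 21.7% of the 23 and in 19.4% of tested genes. GAAATTT stood in 16.7%, 4.35% and 13.3%, in that order. These are matches of letters within 250 bases, given as a description.

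Cysteine-rich receptor-like kinases, whose genes lie partly in tandem clusters and respond to pathogens, were split. Of 17 tested members, 5 were higher in jePs (CRK4, CRK6, CRK7, CRK13 and CRK45), beside 1.22% of all tested genes. None was lower, and the list median over 1 to 18 h was 0.25. CRK7 had 594, 318 and 286 in jePs and 63.3, 130 and 115 in jeps at 3 h, and was called at 5 time points from 2 h on. CRK6, its neighbour, had 465, 385 and 371 against 83, 100 and 92.9 at 1 h (4.48-fold, adjusted p = 0.00243) and 28.4, 204 and 151 against 18, 17.8 and 6.25 at 18 h. CRK4 was called at 18 h (44.2, 154 and 135 against 12, 17.8 and 28.1). CRK13 was called at 1 h through jePs replicate 1 (3800, beside 515 and 2560, against 788, 600 and 1000), and the call was lost without that library. CRK37 (AT4G04500) is the gene that the study picked from these same libraries as a marker of the PAD4 sector, so its direction is not independent evidence. It did not pass the filter, and stood at 75, 249 and 166 in jePs and 0, 0 and 3.7 in jeps at 9 h, and at 28.4, 196 and 112 against 0, 2.97 and 3.12 at 18 h. The study's second candidate, MSRB8 (AT4G21840), a methionine sulfoxide reductase, had 9.47, 223 and 71 against 3, 0 and 0 at 18 h and no reads in any of the 6 libraries at 0 h.

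A further set was chosen after its values were seen, as genes called at 4 or more time points. RLP23, the receptor-like protein that senses a fragment of microbial NLP proteins and signals through EDS1 and PAD4, was called at all 6 time points after infiltration. It stood at 278, 177 and 282 in jePs and 63.3, 63 and 29.6 in jeps at 3 h, and at 75.8, 412 and 316 against 12, 38.6 and 18.8 at 18 h (11.3-fold, log2 3.50 ± 0.58, adjusted p = 3.95e-06). LURP1, needed for basal defence against an oomycete, had 356, 398 and 351 against 21.4, 8.33 and 29.6 at 9 h. DMR6, an enzyme that hydroxylates salicylate and dampens defence, was apart at all 7 time points, from 275, 170 and 392 against 52.9, 45.5 and 112 at 0 h to 189, 731 and 593 against 36, 110 and 18.8 at 18 h (9.07-fold, adjusted p = 1.92e-05). MSRB9, the neighbour of MSRB8, had 545, 338 and 189 against 42.3, 94.7 and 49.5 at 2 h. AT5G55450 had 126, 458 and 428 against 12, 14.9 and 3.12 at 18 h (log2 5.01 ± 0.73, adjusted p = 7.35e-10), and was apart at all 7 time points. AT5G10760, listed in RefSeq under the synonym APOPLASTIC, EDS1-DEPENDENT 1, had 714, 2200 and 1530 against 144, 131 and 150 at 18 h.

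**Figure D3:**
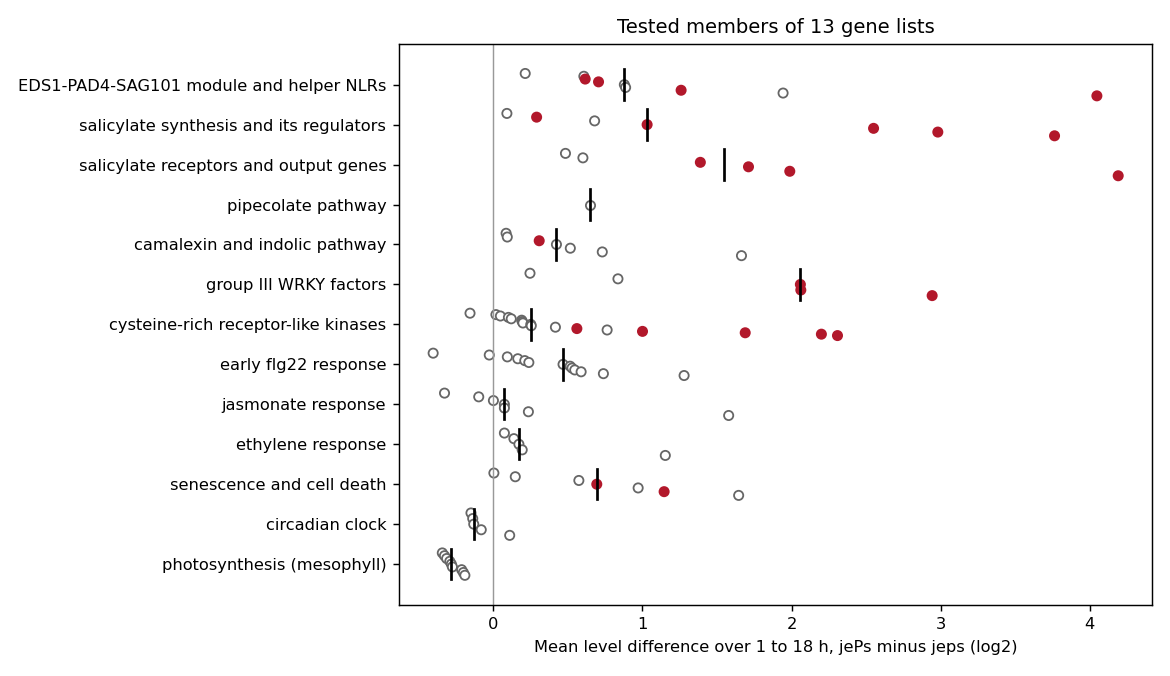
Mean level difference over 1 to 18 h (log2, jePs minus jeps) of each tested member of 13 gene lists, filled in red where the gene was called higher at 1 or more time points, with the list median as a black line. The medians were 2.06 for group III WRKY factors, 1.55 for salicylate output genes and -0.28 for photosynthesis genes.

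The remaining lists held few calls at single time points. The mean contrast over 1 to 18 h, chosen after seeing the data, called some members higher without such a call (edgeR). These were PAD3 of the camalexin list (log2 1.66, adjusted p = 0.00103) and SAG13 of the senescence list (1.645, 6.31e-06). MPK11 of the early flg22 list (1.28, 0.000425) and TAT3 of the jasmonate list (1.58, 0.000563) were the others, and no member was called lower. The camalexin and indolic pathway had 1 of 7 tested members called (GSTF6 at 18 h, lost in 5 of 6 fits without 1 library of that time), and senescence and cell death 2 of 7 (MC2, a metacaspase, and NUDT7, a nudix hydrolase that restrains EDS1 signalling). Of all tested genes, 1.22% were called higher at any time point. NUDT7 had 3150, 1240 and 1430 in jePs and 719, 632 and 534 in jeps at 2 h, and 382, 877 and 671 against 231, 95 and 153 at 18 h (4.01-fold, adjusted p = 4.12e-05). MC2 was called at 18 h with overlapping groups (41.1, 304 and 259 against 39, 62.4 and 50), and the call was lost without jePs replicate 2. Early flg22 response genes had 0 calls at single time points in 13 tested members. Their median change from 0 h, averaged over the 6 time points, was 4.07 in jePs and 3.76 in jeps. WRKY33, a regulator of camalexin, had 4110, 1600 and 1540 in jePs and 1840, 1970 and 1520 in jeps at 2 h. FRK1, a receptor-like kinase gene used as a flg22 marker, did not pass the filter and stood at 5620, 5170 and 4460 against 4050, 3390 and 4100 at 3 h. Jasmonate response genes (7 tested), ethylene response genes (5), clock genes (5) and photosynthesis genes (9) had 0 calls at single time points. In the pipecolate pathway SARD4 alone was tested, without a call, so the list says little about the pathway. Its members ALD1, an aminotransferase that starts pipecolate synthesis, and FMO1, which makes N-hydroxypipecolate, did not pass the filter and are given here after their values were seen. ALD1 stood at 68.8, 88.4 and 31.9 in jePs and 0, 4.17 and 0 in jeps at 9 h, and jePs was above jeps without overlap at 4 time points. FMO1 stood at 43.8, 69.8 and 51.1 against 0, 4.17 and 0 at 9 h, without overlap at 3 time points. CYP71A12, of the camalexin list, did not pass the filter either and is likewise given after its values were seen. It stood at 862, 678 and 652 against 448, 247 and 275 at 5 h, and lay above without overlap at 5 time points. CYP71A13, a related gene that did not pass either, lay above without overlap at 1 time point. At 18 h its groups overlapped with the lower mean in jePs (34.7, 23.1 and 6.87 against 60, 80.2 and 9.38). All 9 photosynthesis genes had a mean difference below 0 over 1 to 18 h, with a median of -0.28, beside 0.001 at 0 h. None of the 98 tested members of the 13 lists was called lower in jePs, beside 0.0506% of all tested genes. Among members that did not pass the filter, ORA59, an ethylene response factor, lay below in jePs, at 0, 6.98 and 6.38 against 53.6, 33.3 and 59.3 at 9 h and at 31.6, 34.6 and 22.9 against 87, 77.2 and 87.5 at 18 h. The clock gene PRR9 was at 25, 20.3 and 8.33 against 35.3, 59.1 and 70.3 at 0 h.

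Many of the differences were present in leaves that had not been infiltrated, without passing the test there. Of the 144 genes higher after infiltration, 105 (72.9%) had a positive difference at 0 h, beside 50.8% of all tested genes. In 41 of them (28.5%) all 3 jePs libraries lay above all 3 jeps libraries at 0 h, which held for 2.91% of tested genes. Their median difference was 0.67 at 0 h and 0.99 over 1 to 18 h (log2). The 5 called at 0 h were FLOT1, RLK1, AT1G13470, AT1G35710 and AT5G10760. AT1G35710 stood at 258, 243 and 150 in jePs and 115, 63.6 and 18.8 in jeps at 0 h (3.64-fold, adjusted p = 0.0114), and at 186, 465 and 408 against 63, 65.3 and 65.6 at 18 h. AT1G13470 was read at 25, 28.4 and 66.7 in jePs at 0 h and not in jeps. Of the 144, 14 were also called higher on the change from 0 h. The median of the mean difference in that change over 1 to 18 h was 0.38 for the 144 and -0.04 for all tested genes (log2). The 144 were selected on the level after infiltration, which is part of that change. Counts of level calls and of change calls cannot be compared directly, because their SE and adjustment differed.

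The same difference could be read in libraries that neither jePs nor jeps contributed. Of the other pairs that differ only in PAD4, 3 also carry sid2-2 (JEPs and JEps, jEPs and jEps, JePs and Jeps, 126 libraries), and they were compared in the same way after the data had been seen. All 144 genes had a positive mean difference over 1 to 18 h in these pairs, beside 42.9% of tested genes, and 97 of them (67.4%) were called higher there after infiltration, beside 1.6% of tested genes. The median difference of the 144 was 0.74 there and 0.99 in jePs against jeps. PAD4 apart, PBS3 differed by 3.42 on average in the other 3 pairs and by 3.76 in jePs against jeps, SARD1 by 2.56 and 2.55, WRKY70 by 1.93 and 2.94, and LURP1 by 2.14 and 4.26 (log2). The 144 were selected on jePs and jeps, so that a larger value there is part of the selection. No gene was called on the difference between jePs against jeps and the other 3 pairs, with 103 to 400 genes at an unadjusted p under 0.05 at each time point (edgeR). All 4 pairs shared experiments by replicate number. In the 4 pairs with SID2 intact, 143 of the 144 (99.3%) had a positive mean difference, beside 39.4% of tested genes, and 108 (75%) were called higher, beside 3.06%.

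**Figure D4:**
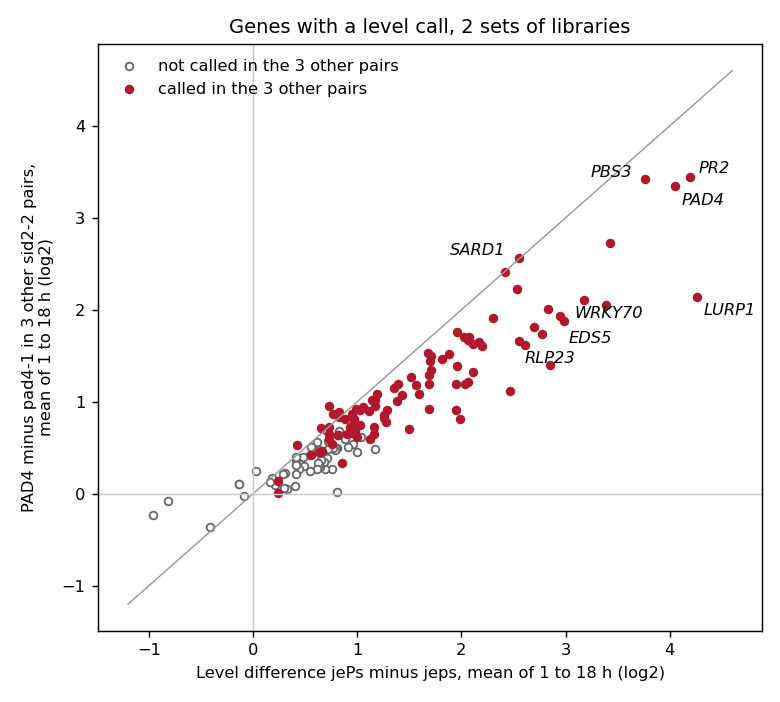
Mean level difference over 1 to 18 h for the 150 genes with a level call, in jePs against jeps (horizontal) and in the 3 other sid2-2 pairs that differ in PAD4 (vertical), both log2, with red for genes also called in those pairs and a grey line of equality. All 144 genes called higher lay above 0 on the vertical axis, and most lay below the line.

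The change from 0 h was the measure by which the study defined sector effects. Both genotypes responded broadly. By 1 h, 5521 genes were called against 0 h in jePs (46.6%) and 5364 in jeps (45.3%). The 3 h counts were 5750 (48.5%) and 5575 (47.1%), and the 18 h counts were 2368 (20%) and 1736 (14.7%). Whether these counts differ was not tested as such. The difference between the changes, called the response change, passed a pooled q under 0.05 and a log2 size above 1 in 39 genes at any time point (0.329%), 26 of them higher in jePs (0.219%) and 13 lower (0.11%). At 1 h, 12 genes were called (0.101%), of which 8 were higher (0.0675%). A single gene was called at 2 h (0.00844%), and 4 genes were at 3 h (0.0338%), all of them lower. Calls then came to 7 at 5 h (0.0591%) and 16 at 9 h (0.135%), and to 12 at 18 h (0.101%), of which 10 were higher (0.0844%). Together these were 52 calls. The sign was the same in all 3 same-numbered replicates in 46 of the 52.

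Those calls depended on pooling 96 comparisons of the series in 1 set of q values. With adjustment over the 6 comparisons of jePs with jeps alone, no gene was called (smallest adjusted p = 0.319), while 268 to 548 genes per time point had an unadjusted p under 0.05 (2.26% to 4.63%). DESeq2 and edgeR on the 42 libraries called 0 as well. With the replicate number as a block within each time point, edgeR called 2 genes, AT3G16370 at 9 h and AT5G18610 at 2 h, and limma-voom with that block called 11. Of the response genes described below, the edgeR block fit thus called AT3G16370 alone. The limma-voom block fit called AT3G16370, ADT4, MIR167d, TO1, ALIS1 and AT5G53570, and none of the others. The direction of the calls depended on the method as well, with 26 higher and 13 lower here, 44 and 33 without a filter, 167 and 175 with a negative binomial model of each gene by itself, 4 and 7 with limma-voom and the block, and 0 and 2 with edgeR and the block. Of the 37 response calls picked by the naming rule, 36 were lost in at least 1 fit that left out a single library, and the exception was AT4G05590 at 9 h. The median SE of a response change was 0.55 on the log2 scale and that of a level difference 0.37. No gene was called on the difference between this response change and the mean of the other 7 PAD4 pairs (edgeR, 271 to 412 genes per time point at an unadjusted p under 0.05).

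Among genes whose response change was higher in jePs, ADT4, an arogenate dehydratase that makes phenylalanine, had the smallest q. It was alike at 0 h (100, 73 and 142 in jePs, 79.4, 164 and 136 in jeps) and stood at 1540, 354 and 618 against 214, 318 and 254 at 1 h, a response change of 2.08 ± 0.47 (q = 0.0017). Without jePs replicate 1 at 1 h it was 1.31 and not called. CRK45, a kinase of the cysteine-rich receptor-like family, had 8.33, 44.6 and 8.33 against 26.5, 22.7 and 79.7 at 0 h and 1760, 685 and 1100 against 562, 264 and 368 at 1 h (2.38 ± 0.65, q = 0.0166). At 18 h it had 344, 742 and 600 against 201, 190 and 128 (2.52 ± 0.66, q = 0.00917). Leaving out 1 library moved these values between 1.49 and 3.98 at 1 h and between 1.64 and 4.13 at 18 h, lowest without jeps replicate 3 and highest without jePs replicate 2 of 0 h, and the calls were lost in 5 and 3 of 12 fits. XLG2, an extra-large G protein that associates with FLS2, was called at 18 h with 111, 188 and 174 against 69, 11.9 and 53.1 (2.36 ± 0.60, q = 0.00818), a call that was lost without jeps replicate 2 at 18 h or replicate 1 at 0 h. GSTF6 and GSTF7, glutathione transferases with near-identical sequences, were both called at 18 h (1.73 and 1.78), with GSTF7 at 872, 2030 and 2410 against 708, 754 and 919. Only reads that mapped to a single gene were counted.

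At 9 h, 12 genes had a higher response change, and all but Cand6 had a lower point estimate of the level in jePs at 0 h. TO1, a mitochondrial thioredoxin, had 41.7, 101 and 133 in jePs and 176, 155 and 211 in jeps at 0 h, and 175, 186 and 172 against 118, 87.5 and 92.6 at 9 h (1.84 ± 0.42, q = 0.0021). ALIS1, a subunit of lipid flippases, had 375, 507 and 472 against 150, 271 and 207 at 9 h (1.51 ± 0.35, q = 0.00285). AT5G53570, which RefSeq lists as RabGAP22, had 131, 212 and 185 against 85.7, 54.2 and 92.6 (1.90 ± 0.44, q = 0.00256). ATM1, a myosin, was lower in jePs at 0 h (16.7, 12.2 and 25 against 61.8, 72.7 and 42.2) and alike at 9 h (156, 142 and 95.7 against 85.7, 108 and 81.5). AT1G08530 had 25, 24.3 and 8.33 against 97.1, 72.7 and 112 at 0 h, a level difference called there (adjusted p = 0.0128), and 100, 79.1 and 95.7 against 107, 37.5 and 74.1 at 9 h (2.60 ± 0.69, q = 0.0106).

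Lower response changes were in part of the opposite form, a higher level in jePs at 0 h and equal levels later. AT5G61520 was called at 5 time points. It had 58.3, 64.9 and 100 in jePs and 26.5, 50 and 9.38 in jeps at 0 h, and 408, 421 and 334 against 523, 442 and 379 at 2 h. At 1 h its response change was -1.93 ± 0.47 (q = 0.00491), and without jeps replicate 3 at 0 h it was -1.45 and not called. With another scaling of the libraries (TMM) its q was 0.0581 at 3 h and 0.0518 at 9 h. CRK5 had 58.3, 60.8 and 33.3 against 0, 18.2 and 18.8 at 0 h and 300, 303 and 346 against 303, 339 and 296 at 3 h (-1.82 ± 0.54, q = 0.0354). FLOT1, a flotillin of plasma membrane domains, had 66.7, 20.3 and 83.3 in jePs at 0 h while the 3 jeps libraries held 1 read in all, and at 5 h it had 1750, 1580 and 1280 against 1060, 985 and 763. DHDPS1, the first enzyme of lysine synthesis, had 158, 97.3 and 83.3 against 35.3, 63.6 and 37.5 at 0 h and 106, 46.5 and 109 against 75, 200 and 148 at 9 h (-2.11 ± 0.52, q = 0.00603). Over the 52 calls, the difference at 0 h was larger in size than that at the called time in 28, and the level at the called time was itself called in 17.

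**Figure D5:**
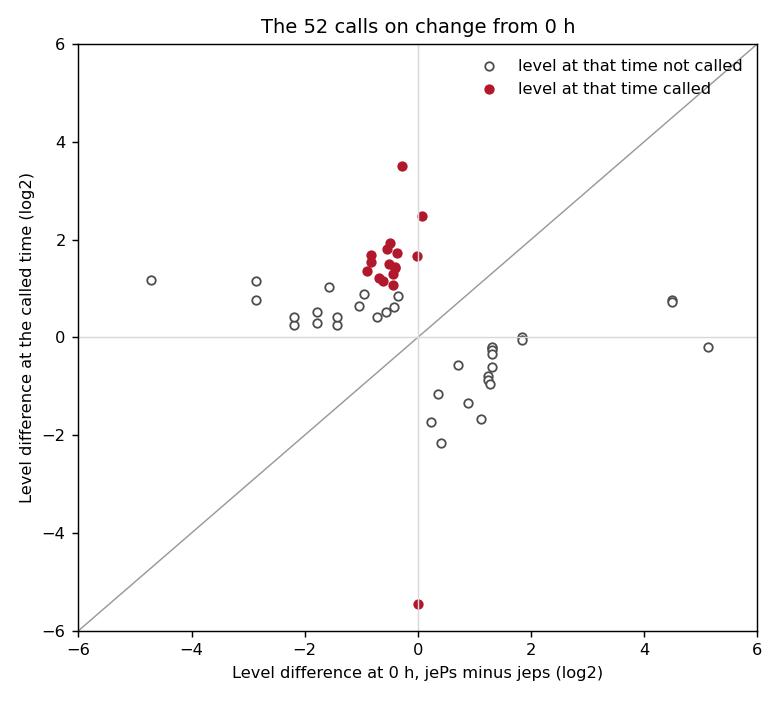
Level difference at 0 h (horizontal) against level difference at the called time (vertical), both log2 of jePs minus jeps, for the 52 calls on the change from 0 h, in red where the level at that time was also called. Of the 52, 28 had the larger difference at 0 h, and 17 are in red.

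AT3G16370 at 9 h was called in the pooled test and, with the replicate block within time, by both edgeR and limma-voom, while the additive block called no gene. Its levels were 2220, 2550 and 2670 in jePs and 1650, 2120 and 2030 in jeps at 0 h. By 9 h they were 350, 363 and 230 against 600, 904 and 593, with jePs now below jeps in all 3 replicates (-1.51 ± 0.42, q = 0.0283). It lay below at 5 h and 18 h as well (638, 617 and 790 against 939, 1250 and 1140, and 395, 312 and 412 against 516, 567 and 562), and the response change was not called there. With the block the 9 h value was -1.54 by edgeR (adjusted p = 0.0116) and -1.48 by limma-voom (adjusted p = 0.014). In the other 7 PAD4 pairs the mean response change at 9 h was -0.91 (adjusted p = 5.3e-05).

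A few response calls rested on groups without reads, so that no fold can be given. MIR167d, the locus of a microRNA precursor, had 0 in the 3 jePs libraries at 1 h and 18.8, 27.3 and 14.3 in jeps, after 142, 162 and 133 against 79.4, 186 and 159 at 0 h. AT2G44380 had 25, 8.11 and 16.7 in jePs and 0 in jeps at 0 h, and 627, 761 and 1100 against 819, 994 and 1040 at 5 h. AT4G39830 was at 0 in jePs and at 8.82, 9.09 and 14.1 in jeps at 0 h, and at 81.3, 112 and 89.4 against 42.9, 20.8 and 63 at 9 h. Lower levels in jePs were rare: beside MIR167d at 1 h and AT1G08530 at 0 h, they included SETH3 at 18 h (63.2, 30.8 and 36.6 against 84, 140 and 81.2), AT4G34630 and AT3G25545.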

How the data were processed

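The authors made stranded 3′ Tag-Seq libraries from leaf RNA, trimmed barcodes, removed homopolymer reads and aligned the rest to TAIR10 transcripts with Bowtie 0.12.8. The deposited counts are raw whole numbers of uniquely assigned reads on the forward strand, for 33600 genes and 357 libraries. All 357 count columns matched a sample, and 0 columns were left unused. Groups came from the genotype and time in the labels.

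Genes were kept where fewer than 50 libraries had no read and the 15th highest count was above 25, as read from the study's methods. This kept 11848 genes. Libraries without a read were counted over the whole series. A gene silent in many of them was removed whatever its counts elsewhere, as FRK1 was with up to 1800 reads in the 42 libraries. The study reports a larger set of genes after these steps, and analysed AT4G04500 (CRK37), which falls outside here. The set kept here is thus not the study's, and why the sets differ was not tested. Percentages refer to the set kept here. A quasi-likelihood negative binomial model with 119 group means was fitted to all libraries (edgeR 4.0.16, R 4.3.3), with the 90th percentile count divided by 300 as the offset. Response change was the change from 0 h in jePs minus that in jeps. Its q values were pooled over 96 comparisons (90 with jeps and 6 of fls2 with wild type, estimated share of true nulls 1), as the study's methods do. Level differences were adjusted by Benjamini-Hochberg over genes and the 7 time points. Both needed 0.05 and a log2 size above 1. A further 13 gene lists (136 genes, 98 tested) were described by counts and medians.

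Same-numbered libraries of the genotypes shared experiments according to the study's infiltration schedules. Their deviations from the group means correlated at 0.1 to 0.473 (median 0.315, all 21 above 0.1), and those of differently numbered libraries at -0.381 to 0.136 (2 of 42 above 0.1). Deviations sum to 0 within a group, so the second range is tied to the first and adds little. Most same-numbered pairs also shared a lane, so shared experiments and shared lanes cannot be told apart here. By the schedules, the numbers pair the samples. The main values and q values ignore that pairing. A fit with the replicate as a block within time is given for the call counts, and for single genes where stated. Replicates were pools from separate experiments, and time points came from separate plants, per the study's methods.

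Named genes were the mutated genes and FLS2, the study's 2 candidate PAD4 markers, list members with a call, and at each time point up to 5 called genes with the largest response change in each direction and 1 sign in all 3 replicates, 53 genes in all. Another 14 were named because they were called on level at 4 or more time points, and a few more from call tables, after their values were seen. The members and lists were chosen with earlier results of these data known. Alternatives covered scaling (TMM, median of ratios), filters, adjustment, limma-voom 3.58.1, DESeq2 1.42.0, blocks and left-out libraries. The mean contrasts, the comparison with other PAD4 pairs, and for levels the left-out libraries and limma-voom with a block, were added after seeing the data. The scripts were tested on simulated data. Coordinates and upstream sequences are from RefSeq TAIR10.1, and plots were drawn with matplotlib 3.10.9. A further called gene is not reported here.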

Additional observations from a re-analysis of the deposited data

How the results depend on the processing

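The 39 genes with a response change (12, 1, 4, 7, 16 and 12, in order of time) became 0 at any time point and at each time point with adjustment over the 6 comparisons alone, with the 42 libraries alone, with those and an additive replicate block, with DESeq2 and with limma-voom. With a replicate block by time they became 2 at any time point, 1 at 9 h and 0 at 1, 3, 5 and 18 h, and with that block in limma-voom 11 (4, 0, 0, 1, 6 and 0). Gene-by-gene negative binomial z-tests called 342 (80, 44, 38, 65, 138 and 77), and no filter called 77 (22, 13, 10, 22 and 28 at 1 to 9 h), 18 of them shared with the 39. At 2 h a mean count of 50 or more gave 4 genes and no size minimum gave 3. Level calls, 150 at any time point, became 364 without a filter (26, 149, 103, 77, 98, 152 and 182 from 0 to 18 h), 322 with the replicate block by time (20, 122, 79, 44, 50, 143 and 159) and 429 with that block in limma-voom (27, 162, 79, 40, 56 and 201 from 0 to 9 h), 144 and 137 of the 150 being shared with the 2 block fits. The cause of these shifts was not tested. TMM kept 37 of the 39 and 147 of the 150, and no scaling moved the median of all genes by over 0.1. Level calls split into 144 higher and 6 lower, 313 and 57 without a filter, 276 and 46 with the block and 294 and 135 with it in limma-voom. Response calls at 2 h (0 higher, 1 lower) became 13 and 4 without replicate 2 and 1 and 0 without replicate 3, and at 3 h (0 and 4) 9 and 4 and 2 and 1.

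Leaving out 1 library gave 31 to 55 response genes at any time point (3 to 19, 1 to 11, 3 to 9, 2 to 12, 14 to 27 and 6 to 20 in order of time) and 127 to 162 level genes (1 to 8, 7 to 70, 11 to 45, 5 to 26, 14 to 22, 31 to 65 and 57 to 109 from 0 to 18 h). The lowest response counts at 1, 5 and 18 h came without jePs replicate 1 at 1 h, jePs replicate 1 at 0 h and jeps replicate 2 at 18 h, and the highest at 1, 2 and 5 h without jePs replicate 2 at 0 h. Leaving out a replicate number in all groups gave 14 to 60 response genes (2 to 28, 1 to 17, 2 to 13, 3 to 10, 7 to 18 and 2 to 15) and 33 to 103 level genes (0 to 4, 7 to 60, 7 to 12, 3 to 13, 3 to 14, 6 to 51 and 14 to 79), while the mean level contrast stayed at 114 to 119 of 122. Of 48 level calls of named genes, 27 held without each single library, and of 48 with the replicate block by time 47 held (SAG101 at 1 h did not). Reads per library, with 90th percentile counts of 28 to 138, limit what can be said of genes near 0 at 0 h, where a few reads set the change.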

Other observations

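Several genes outside the fixed lists were higher in jePs at 2 or more time points, and they were picked here after their values were seen. PCC1, a gene of development and defence, had 3940, 3160 and 1980 normalized counts in jePs and 1650, 791 and 628 in jeps at 0 h, and 547, 372 and 242 against 7.06, 26.5 and 52.4 at 5 h (13.2-fold, adjusted p = 0.00248, edgeR). Its groups were apart at every time point except 3 h. SIB1, which encodes a nuclear and chloroplast protein that binds WRKY33, had 150, 165 and 294 against 32.1, 62.5 and 29.6 at 9 h (4.62-fold, adjusted p = 0.0098). SOBIR1, the kinase that works with receptor-like proteins such as RLP23, was alike at 2 h (2810, 2480 and 1880 against 1920, 1950 and 1840) and higher at 18 h (657, 1620 and 1140 against 396, 446 and 359, 2.84-fold, adjusted p = 0.000603).

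The next 3 genes encode proteins that act in folding in the endoplasmic reticulum. They were picked after their values were seen, and no list of such genes was counted. CRT3, a calreticulin needed to fold the receptor EFR, had 956, 1590 and 1330 in jePs and 471, 567 and 511 in jeps at 9 h (log2 1.32, adjusted p = 0.00222), and 843, 1250 and 1310 against 597, 410 and 522 at 18 h. ATERDJ3B, a co-chaperone, reached 5480, 5940 and 5640 against 4920, 5950 and 5450 at 3 h and stood at 436, 450 and 785 against 273, 267 and 281 at 18 h (2.04-fold, adjusted p = 0.015). PDIL1-3, a disulfide isomerase, had 152, 215 and 366 against 102, 104 and 141 at 18 h (2.13-fold, adjusted p = 0.0259). For these last 2 genes the groups overlapped at each time point from 0 to 3 h. Their 18 h differences lay little above the size minimum, with jePs replicate 3 the highest library in each. Fits of these 2 genes without that library are not given. The mean contrast over 1 to 18 h called neither (adjusted p = 0.452 for ATERDJ3B and 0.462 for PDIL1-3, edgeR). None of CRT3, ATERDJ3B and PDIL1-3 was called in the 3 other sid2-2 pairs. Their mean differences over 1 to 18 h were 0.54, 0.13 and 0.17 there, beside 0.74, 0.16 and 0.18 in jePs against jeps (log2). No gene was called on the difference between these comparisons. PDIL2-2, another disulfide isomerase that was not picked, was called at 1 time point in jePs against jeps and at 1 in those pairs.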
